A study of Mus musculus with 8 samples.

Results

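The enzymes described here break down the branched-chain amino acids leucine, isoleucine and valine. They were the 10 genes Bcat1, Bcat2, Bckdha, Bckdhb, Dbt, Ivd, Mccc1, Mccc2, Pcca and Pccb. These were chosen by their gene symbols from the 22798 genes of the deposited table, with earlier results of these data known. Expression was measured by RNA-seq in 3T3-L1 cells, a clonal line of Swiss albino mouse fibroblasts that hormones can turn into fat cells, grown in medium with 10% fetal bovine serum. The 8 libraries came from 4 stages with 2 libraries each. These were cells in exponential growth (proliferation), cells kept confluent for 48 hours (quiescence), cells 10 hours after a differentiation cocktail was added (clonal expansion) and cells 6 days after it was added (differentiation). Per the labels, the cocktail combined insulin (5 µg/µl), the glucocorticoid dexamethasone (1 µM) and the phosphodiesterase inhibitor isobutylmethylxanthine (0.25 mM), and after 48 hours it was replaced by insulin alone. The first 2 stages received no cocktail. The 2 libraries of each stage carry the experiment numbers 1 and 2. No label calls them separate cultures, so p-values here reflect only how far these libraries differ, and that spread can be technical.

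Branched-chain amino acids are broken down mainly in mitochondria. An aminotransferase first removes the amino group, a step that can run in both directions, and a large dehydrogenase complex then removes carbon dioxide, which commits the carbon to breakdown. The 3 amino acids then follow separate routes that end in acetyl-CoA, acetoacetate or propionyl-CoA. Fat cells take up and oxidize these amino acids, and their carbon is known to feed fatty acid synthesis in differentiated 3T3-L1 cells.

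The values are pseudo-counts, read counts that the authors adjusted for library size, and the total per library lay between 122413485 and 151529060. All 10 genes passed the filter on low values (a mean of 10 or more), as 14647 genes did, and were tested. The cells carried fibroblast transcripts at every stage, with the 8 markers listed summing to 3293509 to 6184512 in the 6 libraries before differentiation and to 1455157 and 1580900 in the differentiated ones. The 10 fat cell markers summed to 9479 to 14405 in the 6 libraries before differentiation and to 2993398 and 3060025 in the differentiated ones. Of the 9 macrophage and blood markers, 4 had a mean of at least 10, and the list summed to 378 to 678. Those 4 were Cd68, Csf1r, Fcgr1 and Cd79a. Cd68 had 237 to 402 over the 8 libraries. Csf1r had 131 to 201 in the 6 libraries before differentiation and 31.8 and 43.7 in the differentiated ones. Ptprc and Emr1, which define blood cells and macrophages, stayed under 3 in every library. The 6 epithelial markers summed to 16.8 to 123 before differentiation and to 1985 and 956 in the differentiated libraries, where Krt18 alone had 1711 and 801, while Epcam was below 1 throughout. The 7 skeletal muscle markers summed to 80.2 to 211, the 6 endothelial ones to 148 to 475 and the 5 hepatocyte ones to 4.17 to 47.3. The part of these marker levels in the results was not tested. These are bulk samples, so fewer cells of a type and less RNA per cell cannot be told apart.

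The pair of aminotransferase genes moved in opposite directions at differentiation, and their start regions are shown for that reason. Those of Mccc2 and Pccb are shown too, since the search for motifs found an E-box and an NRF1 match there. The sequences are RefSeq promoter windows of build GRCm38.p6, from 250 bases before to 50 bases after an annotated start, written 5′ to 3′ on the gene's strand. Capitals mark matches to the motifs searched. Of the 10 genes, 9 had a window (13 windows in all), and Dbt had none. For the genes with 2 windows, Bcat1 and Bcat2 among them, the one listed first in the table is printed. The Bcat1 window shown is chr6:145076108-145076407, minus strand; the Bcat2 window shown is chr7:45569903-45570202, plus strand; the Mccc2 window is chr13:100015590-100015889, minus strand; and the Pccb window is chr9:101034835-101035134, minus strand.
Bcat1: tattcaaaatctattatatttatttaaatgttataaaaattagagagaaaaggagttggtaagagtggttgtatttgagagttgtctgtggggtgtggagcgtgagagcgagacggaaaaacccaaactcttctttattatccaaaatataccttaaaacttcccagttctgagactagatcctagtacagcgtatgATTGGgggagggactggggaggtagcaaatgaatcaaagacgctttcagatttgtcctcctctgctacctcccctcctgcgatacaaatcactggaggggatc
Bcat2: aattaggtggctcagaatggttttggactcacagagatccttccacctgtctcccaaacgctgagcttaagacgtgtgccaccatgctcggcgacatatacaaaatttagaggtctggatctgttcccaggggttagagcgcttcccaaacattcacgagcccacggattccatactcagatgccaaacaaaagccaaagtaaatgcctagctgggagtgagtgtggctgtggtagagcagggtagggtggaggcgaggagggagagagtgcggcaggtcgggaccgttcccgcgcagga
Mccc2: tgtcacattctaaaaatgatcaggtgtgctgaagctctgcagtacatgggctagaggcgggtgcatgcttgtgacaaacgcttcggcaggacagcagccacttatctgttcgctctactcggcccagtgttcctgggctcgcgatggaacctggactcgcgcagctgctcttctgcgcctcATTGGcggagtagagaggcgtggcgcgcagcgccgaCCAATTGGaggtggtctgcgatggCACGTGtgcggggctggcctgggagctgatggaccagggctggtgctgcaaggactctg
Pccb: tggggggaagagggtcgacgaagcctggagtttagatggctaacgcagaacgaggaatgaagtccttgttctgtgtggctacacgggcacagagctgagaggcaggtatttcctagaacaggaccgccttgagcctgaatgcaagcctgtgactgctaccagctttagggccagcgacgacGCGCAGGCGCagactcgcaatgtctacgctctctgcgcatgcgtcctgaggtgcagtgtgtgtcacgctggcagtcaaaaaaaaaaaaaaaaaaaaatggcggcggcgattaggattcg

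Both strands were searched for 10 motifs. CCAAT was in 8 of the 13 windows, belonging to Ivd, Mccc1, Bcat1, Bckdhb, Mccc2 and Pcca, and in 37.4% of all 32851 windows. The GC box GGGCGG was in 3 windows (Mccc1, Bckdhb and Pcca) and in 35.7% of all. The E-box CACGTG was in 1 window, that of Mccc2, and in 7.15% of all, and the NRF1 motif was in 1 window, that of Pccb, and in 4.60% of all. No window of these genes held the direct repeat bound by PPARG with RXR (0.0396% of all windows), or the C/EBP motif TTGCGCAA (0.183%). The same held for the C/EBP-ATF motif TGATGNAA (3.97%), the cAMP response element TGACGTCA (1.79%), the estrogen-related receptor motif TNAAGGTCA (1.28%) and the glucocorticoid response element (0.475%). Matches of the motifs may overlap, as 2 CCAAT matches on opposite strands do in the Mccc2 window. A missing match says only that these letters are not in the window. Neither window of Bcat2 held any of the 10 motifs, and the second Bcat1 window, chr6:145048763-145049062, held none either. The 2 windows of a gene also differed in CpG sites, 6 and 16 for Bcat1 and 13 and 9 for Bcat2, beside a median of 7 over all windows.

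From clonal expansion to differentiation, 9 of the 10 genes rose and Bcat1 fell. In this comparison 73.0% of all genes tested were called, 36.8% higher and 36.2% lower, at an adjusted p under 0.05 (limma). The 9 rises ranged from 5.46-fold for Mccc2 to 31.5-fold for Bcat2, with a median log2 fold change over the 10 genes of 3.20, beside -0.00033 over all genes tested. Against quiescence the same 9 genes were higher at differentiation and Bcat1 lower, with a median of 2.80 beside 0.01 over all genes. There 66.3% of genes were called, 33.4% higher and 32.9% lower, or 37.5% of the calls higher when libraries were scaled to the same total, against 50.3%, with the median of all genes at -0.23. Quantile normalization moved that median to -0.12 against clonal expansion and -0.10 against quiescence. Under both scalings 9 of the 10 genes still rose and Bcat1 fell. The comparisons of differentiation with clonal expansion and with quiescence share the differentiated libraries. The plot of the 10 genes by library shows the level of each.

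**Figure D1:**
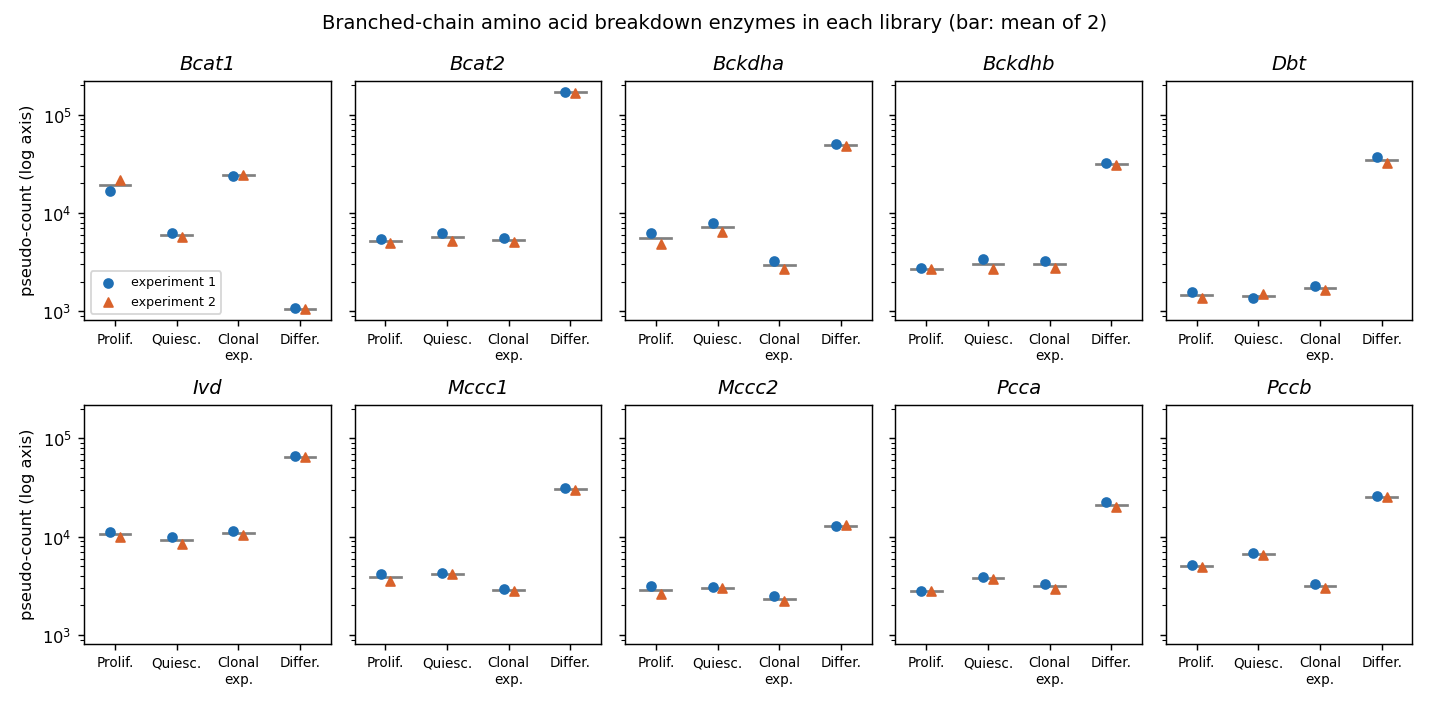
Pseudo-counts (log axis) of the 10 genes in each of the 8 libraries by stage, with circles for experiment 1, triangles for experiment 2 and a bar at the mean of the 2. The mean is highest at differentiation in 9 panels and lowest there in the Bcat1 panel, where the differentiated libraries are at 1073 and 1053.

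Bcat1 encodes the cytosolic aminotransferase (gene ID 12035, chromosome 6, 144942355 to 145024677 in mm9, as the table gives it). Its pseudo-counts were 16909 and 21752 in proliferating cells, 6195 and 5746 in quiescent cells, 23661 and 24498 during clonal expansion and 1073 and 1053 once differentiated. It was high at proliferation and clonal expansion, lower at quiescence and lowest in the differentiated cells, and no stage's libraries overlapped with another's. It fell by 1.68 on the log2 scale from proliferation to quiescence (SE 0.12, adjusted p = 3.33e-05) and rose 4.04-fold with the cocktail (log2 fold change 2.01, adjusted p = 7.03e-07). From clonal expansion to differentiation it was 22.6-fold lower, with a 95% interval of 18.7 to 27.4 (log2 fold change -4.50, adjusted p = 2.00e-09). Among the 14647 fold changes of that last step, ordered from the highest, it was at place 14557.

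Bcat2 encodes the mitochondrial aminotransferase (gene ID 12036, chromosome 7, 52825523 to 52845080). It had 5443 and 5007 in proliferating cells, 6308 and 5164 in quiescent cells, 5617 and 5082 during clonal expansion and 169986 and 166544 once differentiated. The first 3 stages overlapped, and neither change between them was called (adjusted p = 0.461 and 0.486). At differentiation it was 31.5-fold higher than at clonal expansion, with a 95% interval of 26.3 to 37.7 (log2 fold change 4.98, SE 0.12, adjusted p = 8.95e-10), the largest change among the 10 genes. The antisense gene 0610005C13Rik overlaps its start and rose as well, from 9.22 and 13.7 at clonal expansion to 200 and 165 at differentiation. The libraries are unstranded, so reads of the overlapping stretch cannot be told apart. Their part in the values of Bcat2 was not tested.

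The ratio of the 2 aminotransferase genes differed widely between stages. There were 0.322 and 0.230 pseudo-counts of Bcat2 for each of Bcat1 at proliferation, 1.02 and 0.899 in quiescent cells, 0.237 and 0.208 during clonal expansion and 158 and 158 once differentiated. Per kilobase of the longest coding transcript the ratio of levels was 0.781 to 1.21 at proliferation and clonal expansion, 3.38 and 3.83 at quiescence, and 596 and 595 at differentiation. Bcat1 transcripts differ widely in length, 7833 nt for the longest coding one and 1082 nt for the shortest one used, and the transcript in use was not measured. With the shortest one, Bcat1 at differentiation was 982 ± 12.9 per kilobase (SD, n = 2), still far under Bcat2 at 80858 ± 1170 with its longest transcript. With 2 libraries against 2, an exact permutation test of a ratio cannot give a two-sided p below 0.333, and no other test of the ratios was run.

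**Figure D2:**
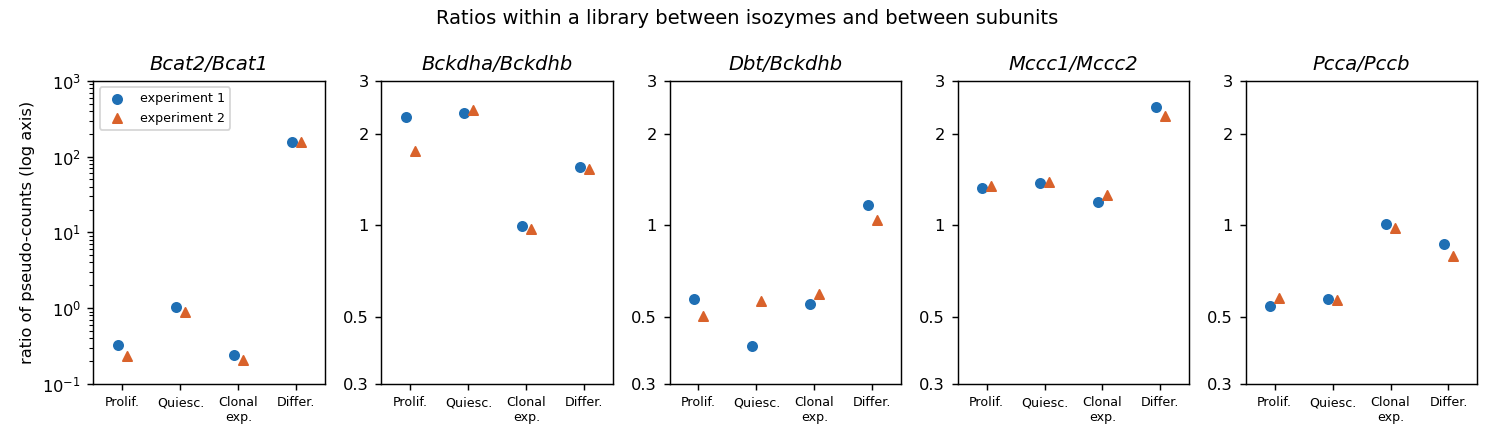
Ratios of pseudo-counts within each library (log axes) for the aminotransferase pair and for the 4 pairs of subunits shown, with circles for experiment 1 and triangles for experiment 2. Bcat2 over Bcat1 goes from 0.237 and 0.208 at clonal expansion to 158 at differentiation, while these 4 ratios of subunits lie between 0.399 and 2.47.

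Genes of the branched-chain ketoacid dehydrogenase complex, the committed step, rose together at differentiation. Bckdha, the alpha subunit of the decarboxylase (gene ID 12039, chromosome 7, 26414871 to 26443780), had 6231 and 4792 in proliferating cells, 7975 and 6434 in quiescent cells, 3248 and 2701 during clonal expansion and 49855 and 47414 once differentiated. Bckdha fell after the cocktail, by 1.27 on the log2 scale (SE 0.15, adjusted p = 4.66e-05), before rising 16.4-fold (log2 fold change 4.04, SE 0.15, adjusted p = 1.28e-08). Bckdhb, the beta subunit (gene ID 12040, chromosome 9, 83842388 to 84017847), had 2730 and 2715, then 3393 and 2681, then 3260 and 2770, and at differentiation 31949 and 30873. The quiescent libraries spanned those of proliferation and clonal expansion, and neither early change was called, before a rise of 10.4-fold (log2 fold change 3.39, SE 0.13, adjusted p = 1.38e-08). Dbt, the acyltransferase that forms the core (gene ID 13171, chromosome 3, 116215997 to 116252899), had 1556 and 1362, then 1355 and 1510, then 1795 and 1644, and at differentiation 37225 and 32223. That was a rise of 20.2-fold from clonal expansion (log2 fold change 4.33, SE 0.12, adjusted p = 2.62e-09) and of 24.2-fold from quiescence.

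The ratios between subunits differed between stages, without a test. The ratio of Bckdha to Bckdhb was 2.35 and 2.40 in quiescent cells, 0.997 and 0.975 during clonal expansion and 1.56 and 1.54 once differentiated. Dbt was at 0.399 to 0.594 of Bckdhb in the 6 earlier libraries and at 1.17 and 1.04 of it in the differentiated ones. The ratio of Dbt to Bckdha was 0.170 and 0.235 in quiescent cells, 0.553 and 0.609 during clonal expansion and 0.747 and 0.680 once differentiated. Per kilobase, the levels at differentiation were 25611 ± 909 for Bckdha, 21267 ± 515 for Bckdhb and 10519 ± 1072 for Dbt (SD, n = 2), in an order in which no neighbours overlapped. The third component, Dld, a dehydrogenase shared with the pyruvate and ketoglutarate complexes, was at 30893 ± 1025 per kilobase. Dld had already risen 1.81-fold with the cocktail (adjusted p = 4.43e-05) and rose a further 3.68-fold to differentiation (adjusted p = 1.23e-07).

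The complex is switched off by the kinase Bckdk and on again by the phosphatase Ppm1k. Bckdk had 6913 and 6699 during clonal expansion and 13149 and 11658 once differentiated, a rise of 1.82-fold (log2 fold change 0.86, SE 0.10, adjusted p = 3.43e-05). Ppm1k had 1360 and 1456 in quiescent cells, 572 and 676 during clonal expansion and 6427 and 4891 once differentiated. It fell by 1.18 on the log2 scale with the cocktail (adjusted p = 0.00011) and then rose by a log2 fold change of 3.17 (SE 0.16, adjusted p = 7.53e-08). Ppm1k was at 0.0828 and 0.101 of Bckdk at clonal expansion and at 0.489 and 0.420 at differentiation, above the 0.139 to 0.231 of the first 2 stages.

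The 3 genes of the leucine route after the complex all rose at differentiation. Ivd, isovaleryl-CoA dehydrogenase (gene ID 56357, chromosome 2, 118687736 to 118707093), had 11227 and 9910 in proliferating cells, 9895 and 8477 in quiescent cells, 11518 and 10305 during clonal expansion and 66427 and 63829 once differentiated. Its libraries overlapped between proliferation and clonal expansion, neither early change was called, and it then rose 5.98-fold from clonal expansion (log2 fold change 2.58, SE 0.11, adjusted p = 3.03e-08). Mccc1 and Mccc2 encode the biotin-bearing and the other subunit of methylcrotonyl-CoA carboxylase (gene IDs 72039 and 78038; chromosome 3, 35858231 to 35896493, and chromosome 13, 100718487 to 100785594). Mccc1 had 4149 and 3568, then 4287 and 4160, then 2970 and 2809, and at differentiation 31363 and 29774. Mccc2 had 3129 and 2644, then 3100 and 2978, then 2481 and 2224, and at differentiation 12694 and 12989. Both fell with the cocktail, Mccc1 by 0.55 (adjusted p = 0.00102) and Mccc2 by 0.37 (adjusted p = 0.0156) on the log2 scale, and both then rose, Mccc1 by 10.6-fold (adjusted p = 3.61e-09) and Mccc2 by 5.46-fold (adjusted p = 4.56e-08). The ratio of Mccc1 to Mccc2 was at most 1.40 in the 6 earlier libraries, and 2.47 and 2.29 in the differentiated ones.

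Propionyl-CoA carboxylase, which takes up the end product of isoleucine and valine breakdown, is built from Pcca, the biotin-bearing subunit (gene ID 110821, chromosome 14, 122933550 to 123289166), and Pccb (gene ID 66904, chromosome 9, 100882457 to 100935294). Pcca had 2774 and 2801 in proliferating cells, 3859 and 3701 in quiescent cells, 3315 and 2924 during clonal expansion and 22299 and 20009 once differentiated. Pccb had 5136 and 4864, then 6750 and 6516, then 3268 and 2990, and at differentiation 25608 and 25221. Both rose 1.33-fold to 1.36-fold at confluence, fell with the cocktail, and were highest in the differentiated cells. From clonal expansion Pcca rose 6.78-fold (log2 fold change 2.76, SE 0.11, adjusted p = 1.38e-08) and Pccb rose 8.13-fold (log2 fold change 3.02, SE 0.10, adjusted p = 4.00e-09). The ratio of Pcca to Pccb was 0.540 to 0.576 before the cocktail, 1.01 and 0.978 during clonal expansion and 0.871 and 0.793 once differentiated. In the table, Cdkn2d is listed over most of chromosome 9, an interval that covers Bckdhb and Pccb, with 158 to 294 pseudo-counts.

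At confluence the share of these genes called was near that of all genes. Between proliferation and quiescence 2 of the 10 rose, 1 fell and 7 were not called, where 23.7% of all genes were called, 11.9% higher and 11.8% lower. Bcat1 was the fall. The rises were Pcca (log2 fold change 0.44, SE 0.11, adjusted p = 0.0154) and Pccb (log2 fold change 0.41, SE 0.10, adjusted p = 0.0129). Bckdha had a log2 fold change of 0.39 (SE 0.15, adjusted p = 0.0952). Without proliferation 2, neither Pcca (0.45) nor Pccb (0.37) was called, and without proliferation 1 Pcca was not called (0.43) and Bckdha was (0.58). Without quiescence 2, Bckdha was also called (0.55).

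The changes of these genes 10 hours after the cocktail was added were mixed, and the share called was near that of all genes. Of the 10 genes 1 rose, Bcat1, 5 fell and 4 were not called, where 68.8% of all genes were called, 34.4% higher and 34.4% lower. With libraries scaled to the same total, 37.4% of all calls were higher (3768 genes, against 5038), and the median of all genes was -0.24 on the log2 scale. Of the 10 genes 1 then rose and 6 fell, with Bcat2 (-0.33) called as well. Bckdha fell most, 2.42-fold, and Pccb next, 2.12-fold (log2 fold change -1.08, SE 0.10, adjusted p = 5.64e-06), followed by Mccc1, Mccc2 and Pcca (log2 fold change -0.28, adjusted p = 0.0387). Dbt (0.26, adjusted p = 0.0826), Ivd (0.25, adjusted p = 0.0744), Bcat2 (-0.10) and Bckdhb (-0.01) were not called. Without clonal expansion 2, Mccc2 (-0.29) and Pcca (-0.19) were not called. The call of Pcca was also lost without quiescence 1 (-0.25) or either proliferation library, and Ivd was called without quiescence 1 (0.36). The 2 quiescent libraries differed with transcript length, with experiment 2 lower in the fifth of genes with the shortest transcripts (median -0.25 on the log2 scale) and higher in the fifth with the longest (0.25). For the 10 genes this difference ranged from -0.34 to 0.16, and with a trend on length removed Dbt (0.29) and Ivd (0.28) were called higher at clonal expansion.

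**Figure D3:**
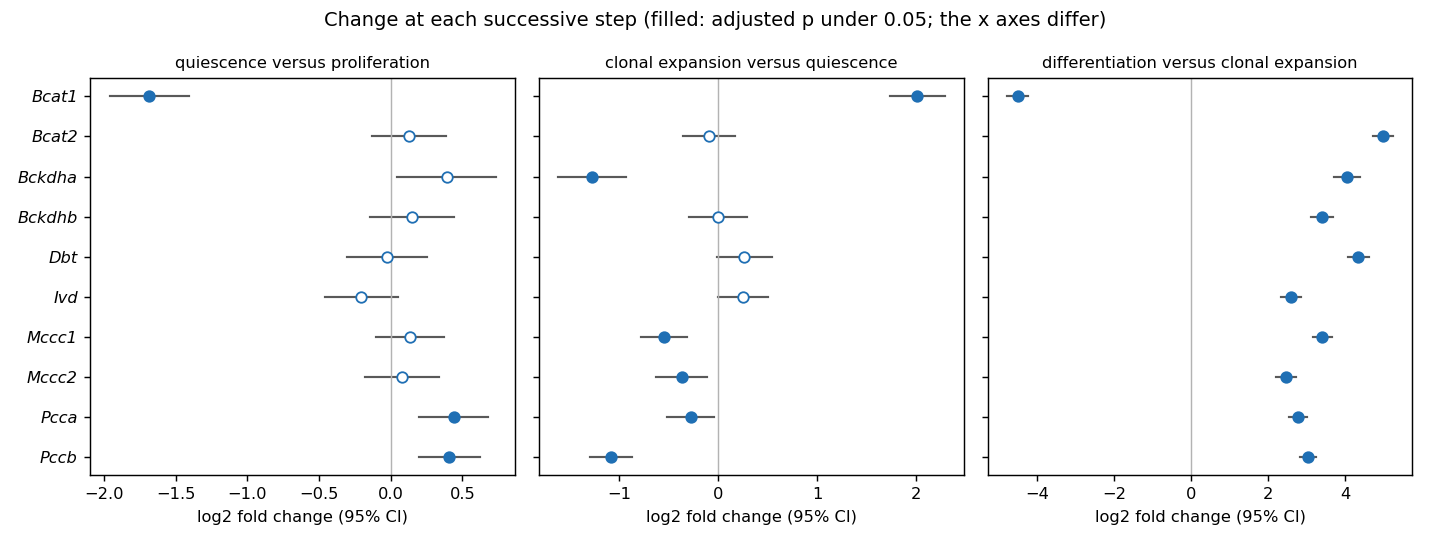
Log2 fold changes of the 10 genes at the 3 successive steps, with 95% confidence intervals; filled points have an adjusted p under 0.05, and the 3 horizontal axes differ. The first 2 steps hold changes of -1.68 to 2.01, and the last holds 9 rises of 2.45 to 4.98 and the fall of Bcat1 by 4.50.

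The levels at differentiation spanned a wide range. Per kilobase of the longest coding transcript, Bcat2 was highest at 80858 ± 1170, followed by Bckdha, Bckdhb and Ivd at 17770 ± 501 (SD, n = 2). Mccc1 was at 12452 ± 458, Pccb at 10955 ± 118, Dbt at 10519 ± 1072, Pcca at 8161 ± 625, Mccc2 at 6049 ± 98.2 and Bcat1 at 136 ± 1.78. Dbt and Pccb overlapped, and no other neighbours in this order did. This order rests on the transcript lengths used. With its shortest coding transcript of 1140 nt, Mccc2 was at 11265 ± 183, a mean above those given here for Pcca, Dbt and Pccb. In proliferating cells Dbt was lowest at 442 ± 41.7 per kilobase, and Bckdha at 2902 ± 536 overlapped with Ivd at 2884 ± 254 (SD, n = 2).

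The other genes of the pathway mostly rose at differentiation too. Their lists were written from general knowledge, with earlier results of these data known. Of 29 listed, 28 were tested, and from clonal expansion to differentiation 26 rose and 2 fell, with a median log2 fold change of 1.87. From quiescence 26 rose and 0 fell, with a median of 1.47. The shares of all genes called higher in these comparisons were 36.8% and 33.4%. At the earlier steps there were 3 rises and 3 falls at quiescence, where 23.7% of all genes were called, and 6 rises and 9 falls at clonal expansion, where 68.8% were. The plot by list shows the genes of each.

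**Figure D4:**
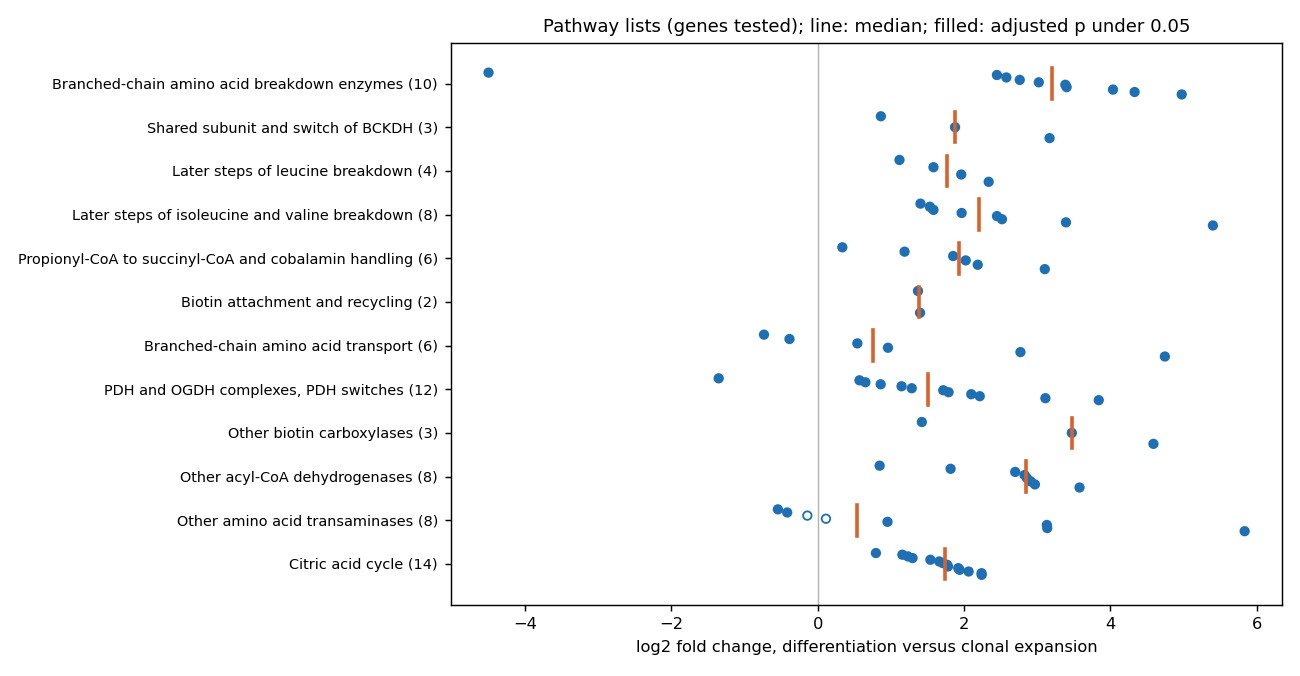
Log2 fold changes from clonal expansion to differentiation for each tested gene of 12 lists (number tested in brackets), with a vertical line at the list's median and filled points for an adjusted p under 0.05. The medians run from 0.53 for other transaminases to 3.47 for other biotin carboxylases, with 3.20 for the 10 branched-chain enzymes.

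Of the later steps of leucine breakdown 4 of 4 rose, with a median log2 fold change of 1.77, among them the thiolase Acat1 by 3.00-fold, the hydratase Auh by 3.90-fold and Oxct1, which activates acetoacetate, by 5.05-fold. Of the later steps of isoleucine and valine breakdown, Acat1 again among them, 8 of 8 rose with a median of 2.21, where 36.8% of all genes were called higher. The largest rise was in Aldh6a1, which makes propionyl-CoA from valine. It had 6444 and 4963 in proliferating cells, 6217 and 6653 in quiescent cells, 2757 and 2532 during clonal expansion and 114812 and 108899 once differentiated. Aldh6a1 thus fell with the cocktail by 1.28 on the log2 scale (adjusted p = 1.28e-05) and then rose 42.3-fold (SE 0.13 on the log2 scale, adjusted p = 9.32e-10). Hibch, a hydrolase of the valine route, rose 10.5-fold and the next enzyme, Hibadh, 5.73-fold. Acadsb, the dehydrogenase of the isoleucine route, rose at confluence (log2 fold change 0.46, adjusted p = 0.0122), fell with the cocktail (-0.58, adjusted p = 0.000769) and rose to differentiation (2.45), the order of changes that Pcca and Pccb had. Without proliferation 2 its rise at confluence was not called (0.38).

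Beyond propionyl-CoA, 6 of 6 genes rose, with a median of 1.94, where 36.8% of all genes were called higher. Mut, the cobalamin-dependent mutase that yields succinyl-CoA, rose 8.60-fold, from 5255 and 4967 to 44113 and 43790 (adjusted p = 3.61e-09). The smallest rise was in Mmadhc, which handles cobalamin, at 1.26-fold (adjusted p = 0.0196). The 2 genes that attach and recycle biotin, on which Pcca and Mccc1 depend, rose as well, Hlcs by 2.59-fold (adjusted p = 3.00e-06) and Btd by 2.64-fold (adjusted p = 9.12e-06).

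Of 7 transporters of these amino acids listed, 6 were tested, and 4 rose and 2 fell from clonal expansion to differentiation, where 36.8% of all genes were higher and 36.2% lower. From quiescence to differentiation 4 rose, 0 fell and 2 were not called, where 33.4% of all genes were higher. Slc25a44, the mitochondrial carrier of branched-chain amino acids, had 4058 and 4418 in quiescent cells, 7926 and 8701 during clonal expansion and 11306 and 12930 once differentiated. It rose at both steps, 1.96-fold with the cocktail (adjusted p = 2.52e-05) and 1.46-fold after it (adjusted p = 0.00108). Slc43a1, a plasma membrane carrier, rose 6.83-fold (adjusted p = 1.06e-07), and the related Slc43a2 fell by 0.73 on the log2 scale (adjusted p = 0.0002). Slc43a2 had 3397 and 3349 in quiescent cells, 6008 and 5847 during clonal expansion and 3440 and 3689 once differentiated. Slc7a5 and Slc3a2 form 1 exchanger. Slc7a5 rose 1.95-fold (adjusted p = 0.00228) with unequal differentiated libraries, 41598 and 23084, while Slc3a2 fell by 0.39 on the log2 scale (adjusted p = 0.0144). Without clonal expansion 1 or differentiation 2 the fall of Slc3a2 was not called (-0.35 and -0.24). Slc7a8 was at low levels, with 82.8 and 63.6 in quiescent cells, 5.63 and 7.11 during clonal expansion and 206 and 186 once differentiated. It rose from clonal expansion by a log2 fold change of 4.75 (adjusted p = 2.15e-06). From quiescence the log2 fold change was 1.42 (SE 0.39, adjusted p = 0.00899), and this rise was called under some alternatives but not under all.

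Patterns over the 8 libraries were compared among the 11632 genes with a mean of at least 200, as a description, since the libraries of a stage share their condition. The genes closest to Bcat2 were Hpd, a dioxygenase of tyrosine breakdown (Pearson r = 0.9992), Acadvl, a fatty acyl-CoA dehydrogenase (0.9991), and Bckdhb (0.9990). Bcat2 was high only in the differentiated libraries, so these r values rest mainly on that stage. Those closest to Bcat1 were Smad7, an inhibitor of TGF-beta signalling (0.9977), Smad9, a transducer of BMP signals (0.9968), and Dlx1, a homeobox factor (0.9967).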

How the data were processed

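RNA-seq of 8 unstranded libraries, 2 per stage, was read as single reads of 100 nt. The authors deposited a signal per gene, pseudo-counts made with edgeR and relative log expression factors, per the name of the deposited table. CASAVA 1.8.2, edgeR and mm9 are named per the submitters' processing notes; the aligner and gene models are not given in the sources used here. Reads could not be recovered: 33.3% to 56.1% of values between 0.5 and 10 lay within 0.05 of a whole multiple of 1 read, so no count model was run.

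The model was fitted in limma 3.58.1 (R 4.3.3) to log2(value + 1), with stage as the factor, the 8 libraries together and a trend of variance on mean (4 residual degrees of freedom, 9.78 with those borrowed), for the 14647 genes with a mean of at least 10. Fold changes are on that scale. Two-sided p-values were adjusted over all genes tested (Benjamini-Hochberg), with a threshold of 0.05. The median SE of a log2 fold change was 0.142. The fit was tested on simulated data. Tables were handled in Python 3.11.15 (pandas 2.3.3, numpy 2.4.6). Libraries of a stage had 0 identical values among genes with a mean of at least 10.

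The 10 genes and the gene lists were chosen with earlier results of these data known. Named genes were taken from the 10; up to 3 called genes per list, step and direction; called members of lists of up to 4; both switches, Slc7a5 and Slc3a2; and the 3 genes closest to Bcat1 and to Bcat2. Not every gene that this rule covers is reported here. Lengths came from GENCODE M21, by symbol, with a length for 20508 genes. Same-numbered libraries did not deviate together in every pair of stages (r of 0.013 to 0.354). Alternatives were other pseudocounts, filters, scalings and variance models, a replicate block, a length trend removed, and leaving out each library.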

Additional observations from a re-analysis of the deposited data

How the results depend on the processing

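The rises of 9 genes and the fall of Bcat1 at differentiation, against clonal expansion and against quiescence, held their call and direction under all 19 alternatives. Over the 4 comparisons 728 of 760 fold changes of the 10 genes kept both, and the exceptions lie in the 2 earlier steps. The number of the 10 genes higher at quiescence than at proliferation was 2, but 1 with no filter and 0 with the 2 stages alone, and 0 to 3 when a library was left out. The number higher at clonal expansion than at quiescence was 1, but 2 with quantile normalization, 3 with the length trend removed, and 1 to 2 when a library was left out. The number lower there was 5, and 3 to 5 when a library was left out (3 without clonal expansion 2). The fall of Pcca there was also not called with no filter (adjusted p = 0.051), no mean-variance trend (0.0615) or the 2 stages alone (0.0751). With the experiment number as a replicate block, 2 genes (Bcat1 and Ivd) were higher at clonal expansion, Bckdha was called higher at quiescence (0.39, adjusted p = 0.0196), and no other call of these genes changed; the numbers were not taken as pairing the libraries, since same-numbered deviations correlated at 0.013 to 0.354.

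Changes of sign were also limited to the 2 earlier steps. Between proliferation and quiescence, leaving out a library in turn gave Bcat2 -0.016 to 0.273, Bckdhb -0.022 to 0.317, Dbt -0.122 to 0.071 and Mccc2 -0.042 to 0.200; Bcat2, Bckdhb and Dbt (0.053) changed sign without quiescence 1, Dbt also without proliferation 1, and Mccc2 without proliferation 2. Between quiescence and clonal expansion the ranges were -0.239 to 0.049 for Bcat2 and -0.175 to 0.164 for Bckdhb; both changed sign without quiescence 1, Bckdhb also without clonal expansion 2 (0.112), and of the other genes Gpt did with quantile normalization (0.084). The 3472 genes called between proliferation and quiescence were 1757 with no filter, 1942 with the 2 stages alone and 1304 without proliferation 2. The cause was not tested.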

Other observations

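Related enzymes that are not part of branched-chain breakdown were described in the same way. Of 3 other biotin carboxylases 3 rose from clonal expansion to differentiation, a step at which 36.8% of all genes were called higher. Pcx, which makes oxaloacetate from pyruvate, went from 24586 and 20884 to 529447 and 562247 pseudo-counts (log2 fold change 4.59, SE 0.13, adjusted p = 2.07e-09, limma). Of 8 other acyl-CoA dehydrogenases 8 rose with a median log2 fold change of 2.84, among them Acadm, the medium-chain enzyme, with 3.58. Of 14 citric acid cycle genes 14 rose with a median of 1.74, and 8 of them had already risen with the cocktail, where 34.4% of all genes did.

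Of 11 other transaminases listed 8 were tested, and 4 rose and 2 fell from clonal expansion to differentiation, where 36.8% of all genes were higher and 36.2% lower. From quiescence to differentiation 7 rose and 0 fell, with a median log2 fold change of 1.91, where 33.4% of all genes were higher. Gpt, an alanine transaminase, had 627 and 667 during clonal expansion and 35077 and 39016 once differentiated (log2 fold change 5.84, SE 0.14, adjusted p = 9.32e-10), and Gpt2, its mitochondrial relative, rose 8.80-fold. The aspartate transaminases Got1 and Got2 fell by 0.42 (adjusted p = 0.0139) and 0.54 (adjusted p = 0.000706) on the log2 scale; the fall of Got1 was not called without clonal expansion 1 (-0.32) or differentiation 2 (-0.31).

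In the pyruvate and ketoglutarate dehydrogenase complexes, which share Dld with the branched-chain complex, 11 of 12 genes rose and 1 fell from clonal expansion to differentiation. At that step 36.8% of all genes were called higher and 36.2% lower. The fall was in Pdp1, a phosphatase that switches pyruvate dehydrogenase on, from 7176 and 7052 to 2554 and 3032 (log2 fold change -1.35, SE 0.11, adjusted p = 2.41e-06). The other phosphatase of that enzyme, Pdp2, rose 4.64-fold over the same step (log2 fold change 2.22, adjusted p = 1.55e-06). The kinase Pdk2, which switches pyruvate dehydrogenase off, fell by 2.37 on the log2 scale with the cocktail (adjusted p = 3.01e-06) and then rose 14.3-fold (adjusted p = 5.95e-08).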
